A study of Mus musculus with 65 samples.

Results

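The sites described are the LDB1 peaks of SMC3-AID cells, as called before and after degradation of the cohesin subunit SMC3. Untreated cells had 8585 LDB1 peaks on chromosomes 1 to 19 and X, and cells given auxin for 4 h had 7237. An untreated peak with at least 1 bp in common with an auxin peak was counted as kept, and one without as lost. An auxin peak with no untreated peak was counted as auxin-only. The 3 classes held 6715, 1870 and 523 peaks, or 9108 sites in all, set against 143040 peaks in the 9 deposited lists of the series.

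The study profiled chromatin proteins in sublines of the mouse erythroblast line G1E-ER4 by chromatin immunoprecipitation and sequencing (ChIP-seq). In the SMC3-AID subline SMC3 was fused to an auxin-inducible degron, so that adding auxin leads to its destruction by the proteasome. In the LDB1-AID subline the tagged protein is LDB1. The SMC3-AID lists used were LDB1 and RAD21, each from untreated cells and from cells after 4 h of auxin, and each combined 3 replicates. The LDB1-AID lists used were LDB1, RAD21, CTCF and YY1 of untreated cells and LDB1 after 4 h of auxin, and each combined 2 replicates. Each subline is a modified derivative of 1 cell line, and the labels name no second clone of either. The labels call the cells erythroblasts, and peak lists hold no expression values by which this could be checked. CTCF and YY1 were therefore located in another subline than the LDB1 peaks under study, and their positions after SMC3 degradation were not analysed here.

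LDB1 does not bind DNA itself. It is brought to erythroid enhancers and promoters by GATA1 and TAL1, through LMO2, and its self-association domain can join distant sites to each other. Cohesin is a ring complex that includes SMC3 and RAD21, extrudes chromatin loops and is halted at sites bound by CTCF. YY1 is a DNA-binding factor found at many promoters and enhancers.

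Each list gives positions only, with every peak 400 bp wide and no height, score or read count. Lists held from 24 RAD21 peaks in auxin-treated SMC3-AID cells to 54223 CTCF peaks in untreated LDB1-AID cells. Of 15223 RAD21 peaks in untreated SMC3-AID cells, 14 overlapped a RAD21 peak after auxin. The labels name separate replicates, but each list used here combines those of its group. No value below therefore carries an error between replicates, and conditions were not tested against each other. The depth behind each list is unknown, and fewer LDB1 peaks from a shallower or weaker auxin library cannot be told apart from fewer LDB1 sites. Intervals are 95% intervals (Wilson for a share, Newcombe for a difference of shares in percentage points, Woolf for an odds ratio). They cover counting error only, since peaks are not replicates.

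The first comparison asked how LDB1 sites fared when cohesin was degraded. Of all untreated peaks 21.8% were lost (interval 20.9 to 22.7), and 7.23% of auxin peaks were auxin-only (6.65 to 7.85). For each auxin-only peak 3.58 peaks were lost, and the auxin list was shorter, with a net change of -1348 peaks. Loss was spread over the genome. The share lost ran from 18.5% on chromosome 15 to 24.9% on chromosome 5, with a median of 21.8%, and the interval of each of the 20 chromosomes held the share for all peaks. The auxin-only share ran from 4.93% on chromosome 19 to 10.7% on chromosome 17.

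Shifts in position could be read only below 400 bp, because kept and shared peaks are defined by an overlap of 400 bp wide peaks. A peak that moved further counts as lost. Within that limit, the midpoints of kept peaks moved by a median of 19 bp between the untreated and the auxin list (quartiles 9 and 34 bp). Of these peaks 88.1% moved by at most 50 bp. Those with a RAD21 peak moved by a median of 20 bp. Between the untreated lists of the 2 sublines, the 7219 shared LDB1 peaks differed in position by a median of 25 bp, and 77.8% lay within 50 bp. A shift of more than 200 bp was seen at 62 kept peaks.

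Few lost peaks had an auxin peak immediately beside them. An auxin peak of any class had its midpoint 400 to 1000 bp away at 71 of the 1870 lost peaks (3.8%), and an auxin-only peak lay within 1 kb of 11. Another auxin LDB1 peak remained within 5 kb of 339 lost peaks (18.1%) and within 25 kb of 865 (46.3%). No auxin peak lay within 100 kb of 415 lost peaks (22.2%). Seen from the auxin list, 277 of the 523 auxin-only peaks (53%) lay within 25 kb of an untreated peak and 89 (17%) had none within 100 kb. These shares are near the usual spacing of LDB1 peaks. Another auxin peak lay within 25 kb of 51.7% of kept peaks of the auxin list. Another untreated peak lay within 25 kb of 55.2% of all untreated peaks.

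Distance to cohesin was measured from each LDB1 midpoint to the nearest RAD21 midpoint of untreated SMC3-AID cells. The clearest step in loss lay between peaks on RAD21 and peaks just beside it. Of the 446 LDB1 peaks that overlapped a RAD21 peak 9.19% were lost (6.85 to 12.2), and of the 179 with a RAD21 midpoint 400 bp to 1 kb away 24% were lost (18.4 to 30.8). Overlapping minus adjacent peaks gave -14.8 points (-22 to -8.39). From 1 kb outwards the share lost went from 19% of 1021 peaks at 1 to 5 kb to 21.5% at 5 to 10 kb and 21.9% at 10 to 25 kb. It was 23.6% at 25 to 50 kb, 23.7% at 50 to 100 kb and 24.4% at 100 to 250 kb. Beyond 250 kb it was 29% of 155 peaks (22.5 to 36.6). The intervals of neighbouring distance classes overlapped from 400 bp outwards.

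**Figure D1:**
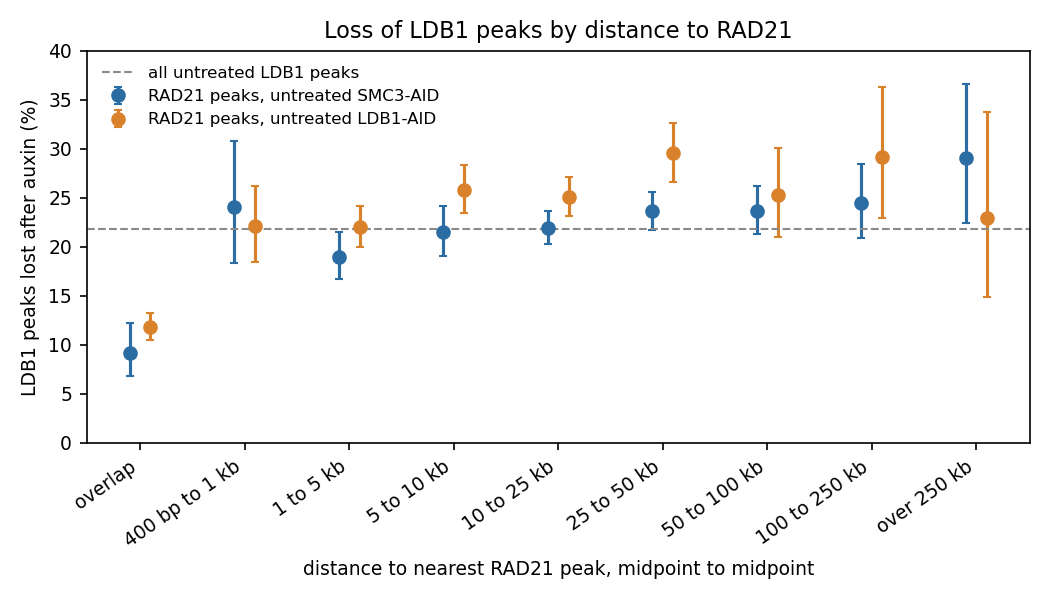
Share of untreated LDB1 peaks lost after auxin (%, y axis) by distance class to the nearest RAD21 peak, midpoint to midpoint (x axis), for the RAD21 list of each untreated subline. Points are shares, bars are Wilson 95% intervals, and the dashed line is the share for all 8585 peaks. The overlap class lies lowest for both lists, at 9.19% and 11.8%.

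The lost share was 20.1% of the 4905 peaks within 25 kb of RAD21 and 24% of the 3680 beyond, a difference of -3.82 points (-5.61 to -2.05). Without the LDB1 peaks that sat on RAD21, the difference was -2.73 points (-4.56 to -0.905). Loss was lower within 25 kb on 19 of the 20 chromosomes. The median distance to RAD21 was 22.9 kb for lost, 19.3 kb for kept and 19.1 kb for auxin-only peaks. Among LDB1 peaks that were not found in untreated LDB1-AID cells the odds ratio of loss within 25 kb was 1.10, with an interval that included 1 (0.893 to 1.37). In a logistic model that also held the overlaps it was 0.961 (0.86 to 1.07).

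The larger RAD21 list of LDB1-AID cells gave the same step. The share lost was 11.8% at the 2095 LDB1 peaks that overlapped it, 22.1% at 400 bp to 1 kb, 22% at 1 to 5 kb and between 23% and 29.5% in the classes beyond. LDB1 peaks lay closer to the other proteins where they were kept. The median distance to YY1 was 10.5 kb for kept, 19.6 kb for lost and 16.9 kb for auxin-only peaks. The corresponding medians for CTCF were 6.37, 7.89 and 6.75 kb. At peaks with no YY1 of their own, the loss with a YY1 peak within 25 kb minus that without was -2.77 points (-4.81 to -0.735). At peaks with no CTCF of their own, the same difference for a CTCF peak within 25 kb was -3.98 points (-6.46 to -1.61).

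Neighbouring LDB1 peaks were counted in the untreated list within 25 kb. LDB1 peaks with company were lost slightly less often than isolated ones, and the relation was not a steady one. The share lost was 23.5% at the 3846 peaks with no neighbour, 21% at the 2604 with 1, 19.8% at the 1337 with 2 and 17.5% at the 456 with 3. It was 20.2% at the 208 peaks with 4 neighbours and 23.9% at the 134 with 5 or more (17.5 to 31.8). Peaks with any neighbour minus those with none gave -3.17 points (-4.94 to -1.41), in the same direction on 16 of 20 chromosomes. At peaks with no RAD21, YY1 or CTCF of their own, a comparison chosen after the data were seen, the difference was -0.44 points (-2.82 to 1.94). In the joint logistic model the odds ratio for a neighbour was 0.944 (0.846 to 1.05).

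Whether adjacent LDB1 peaks were lost together was read from pairs, and the difference was within counting error. Among 2944 pairs of consecutive LDB1 peaks within 25 kb, both were kept in 1888 (64.1%), 1 was lost in 929 (31.6%) and both were lost in 127 (4.31%). The second peak was lost in 21.1% of pairs whose first was lost and in 19.4% of pairs whose first was kept. That difference was 1.71 points, with an interval of -1.77 to 5.48. Within 100 kb it was 1.97 points (-1.38 to 5.53) for pairs with no RAD21 peak between or at them. It was 1.52 points (-3.53 to 7.07) for pairs with a RAD21 peak between them and none at them.

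Chaining LDB1 peaks of either list at 25 kb gave 5864 regions, of which 5624 held an untreated peak. Of the 1800 regions with 2 or more untreated peaks, 1024 kept all (56.9%), 716 lost some (39.8%) and 60 lost all (3.33%). Of those 60, 59 held 2 peaks. Of the 4761 untreated peaks in the 1800 regions 20.4% were lost. How many regions that rate alone would empty was not computed. Of the 1870 lost peaks, 901 were the only untreated peak of their region. A total of 173 regions lost 2 or more peaks, and these held 366 lost peaks. In 87 regions a lost and an auxin-only peak occurred together, and 240 regions held auxin-only peaks and no untreated peak.

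**Figure D2:**
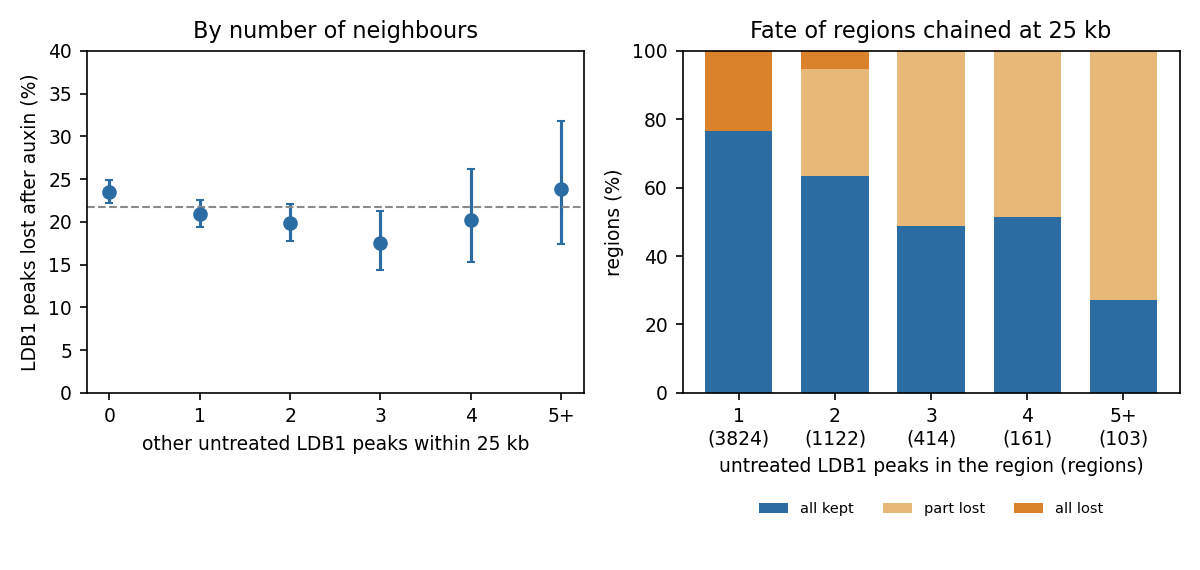
Left, share of untreated LDB1 peaks lost (%, y axis) by the number of other untreated LDB1 peaks within 25 kb (x axis), with Wilson 95% intervals and the share for all peaks as a dashed line. Right, share of regions (%, y axis) that kept all, lost part or lost all of their untreated LDB1 peaks, by the number of those peaks (x axis, number of regions in brackets). The share lost falls from 23.5% to 17.5% between 0 and 3 neighbours and stands at 23.9% at 5 or more, and regions that lost all are 23.6% of those with 1 peak.

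Named regions show how loss was laid out along chromosomes (build mm9, counted from 1). The region with the most lost peaks, 5 of 18, lay at the assembled start of chromosome 9 (3000606 to 3038252, 37.6 kb). Of its 18 LDB1 peaks 11 overlapped RAD21 of untreated SMC3-AID cells, and 2 were found in untreated LDB1-AID cells. It held 10 of the 24 RAD21 peaks still called after auxin, and 0 RAD21 and 0 CTCF peaks of LDB1-AID cells. The lost peaks there lay at 7.27, 13.4, 25.1, 30.5 and 37.4 kb from the region's start. Whether the calls in this region reflect the mapping of reads was not tested. Without chromosome 9 below 3.1 Mb, 1865 peaks were lost.

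A region on chromosome 8 (47783349 to 47875230, 91.9 kb) lost 4 of 10 peaks. The 4 lay at both ends and in the right part, at 0.2, 62.8, 87.3 and 91.7 kb. None of the 10 overlapped RAD21 of SMC3-AID cells, 2 overlapped RAD21 of LDB1-AID cells, and 7 were found in LDB1-AID cells. The last of the lost peaks overlapped RAD21, CTCF and YY1 of LDB1-AID cells.

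A region on chromosome 9 (123832748 to 123975064, 142 kb) also lost 4 of 10 peaks and held 2 auxin-only peaks. Exactly 4 peaks were lost in 3 regions, of which the first 2 by position are given. Its lost peaks lay at 49.4, 63.5, 79.7 and 142 kb, and 2 of them were found in LDB1-AID cells. The lost peak at 63.5 kb had a kept peak beside it at 64.2 kb. Of its auxin-only peaks, the one at 68.7 kb overlapped RAD21 of both sublines and CTCF, and the one at 0.2 kb overlapped RAD21 and YY1 of LDB1-AID cells.

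Another region on chromosome 8 (125190201 to 125260500, 70.3 kb) kept all 9 peaks. All 9 were found in LDB1-AID cells, 4 overlapped RAD21 there and 3 overlapped YY1. Regions on chromosome 1 (135969713 to 135989718, 20 kb) and chromosome 2 (131651152 to 131690565, 39.4 kb) kept 7 of 7 and 6 of 6. Of these, 6 and 6 were found in LDB1-AID cells. Such regions were not rare, since 28 of the 103 regions with 5 or more untreated peaks lost none.

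Of the 678 regions with 3 or more untreated peaks 313 lost none. The single region in which 3 or more untreated peaks were all lost lay on chromosome 5 (92279965 to 92295892, 15.9 kb) and held 3. All 3 were found in LDB1-AID cells, and 2 overlapped RAD21 there. A RAD21 peak of SMC3-AID cells lay between them, at 10.7 kb, and overlapped none of them.

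**Figure D3:**
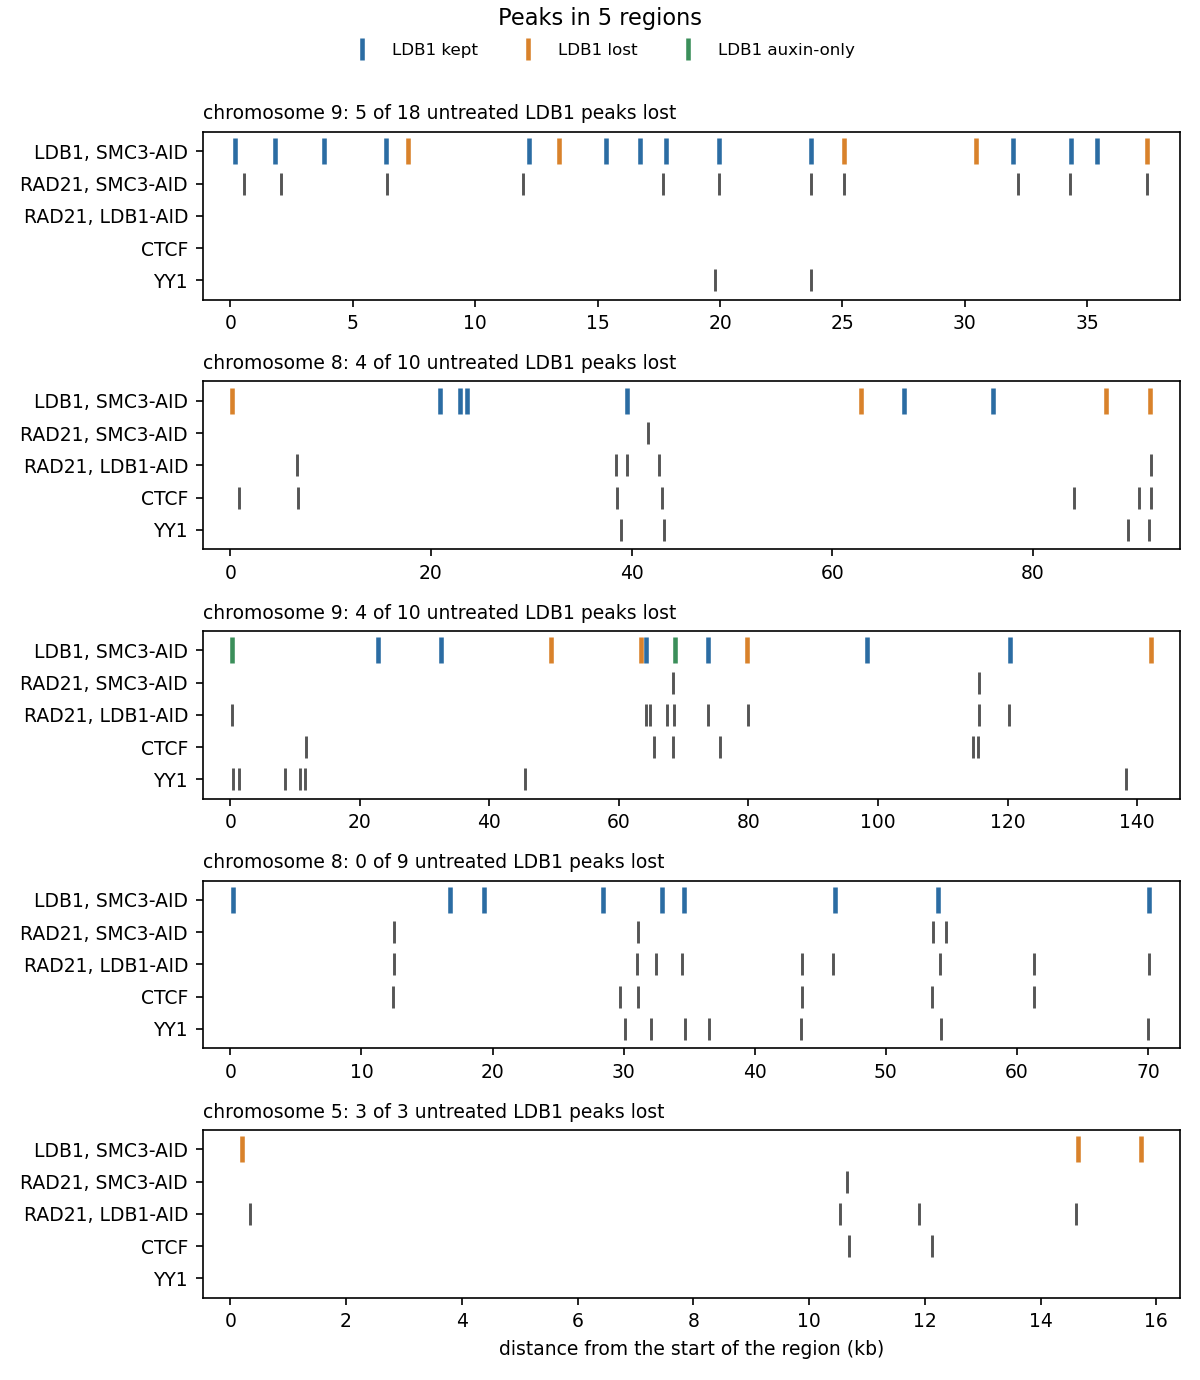
Peaks in 5 named regions, with distance from the start of each region in kb on the x axis and 1 row per list on the y axis. LDB1 peaks are coloured as kept, lost or auxin-only, and grey ticks are RAD21 peaks of each untreated subline and CTCF and YY1 peaks of untreated LDB1-AID cells. Lost and kept LDB1 peaks occur together in the first 3 regions, the fourth kept 9 of 9 and the fifth lost 3 of 3.

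No region held more than 2 auxin-only peaks, and 18 held 2. The first 3 of these by position show different settings. On chromosome 1 (4463281 to 4464921) 2 auxin-only peaks stood alone, with no peak of RAD21, CTCF, YY1 or LDB1 of LDB1-AID cells at them. On chromosome 1 (183175986 to 183187769) they lay between a lost and a kept peak. On chromosome 2 (52169219 to 52175148) they lay on either side of a kept peak, and 1 of them overlapped LDB1 and RAD21 of LDB1-AID cells.

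Loss was then compared by overlap with each of the other lists. LDB1 sites were lost least where LDB1 had also been called in auxin-treated LDB1-AID cells, sites still called after degradation of LDB1 itself. Of 736 such peaks 25 were lost (3.4%, 2.31 to 4.97), against 23.5% of the 7849 others, a difference of -20.1 points (-21.6 to -18.3). Among these splits by a single list the highest loss was 48.5% (45.8 to 51.1), at the 1366 peaks absent from the untreated LDB1-AID list, and 16.7% at the 7219 present there. These 2 lists share their subline and antibody target with each other.

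LDB1 peaks with YY1 were lost in 11% of 1713 cases and those without in 24.5%. With RAD21 of LDB1-AID cells the shares were 11.8% of 2095 and 25% of the others. With CTCF they were 16.8% of 543 and 22.1%. The lower loss held on 20 of 20 chromosomes for YY1 and for RAD21 and LDB1 of LDB1-AID cells, on 19 for RAD21 of SMC3-AID cells and on 16 for CTCF. For RAD21 of SMC3-AID cells a chromosome held only 5 to 47 overlapping LDB1 peaks, of which 0 to 5 were lost. For the 7219 peaks also found in untreated LDB1-AID cells the gaps were narrower. With minus without RAD21 of LDB1-AID cells gave -8.47 points there and -13.2 over all peaks. For YY1 the values were -8.8 and -13.4 points, and for RAD21 of SMC3-AID cells -10.1 and -13.3. For CTCF they were -3.21 points (-6.08 to 0.174), an interval that includes 0, and -5.36. Among the 1366 LDB1 peaks absent from LDB1-AID cells the picture differed. There the odds ratio of loss was 1.15 (0.677 to 1.94) with RAD21 of LDB1-AID cells and 1.74 (0.865 to 3.51) with CTCF, on 58 and 34 peaks. It was 0.401 (0.204 to 0.787) with RAD21 of SMC3-AID cells, on 43 peaks.

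**Figure D4:**
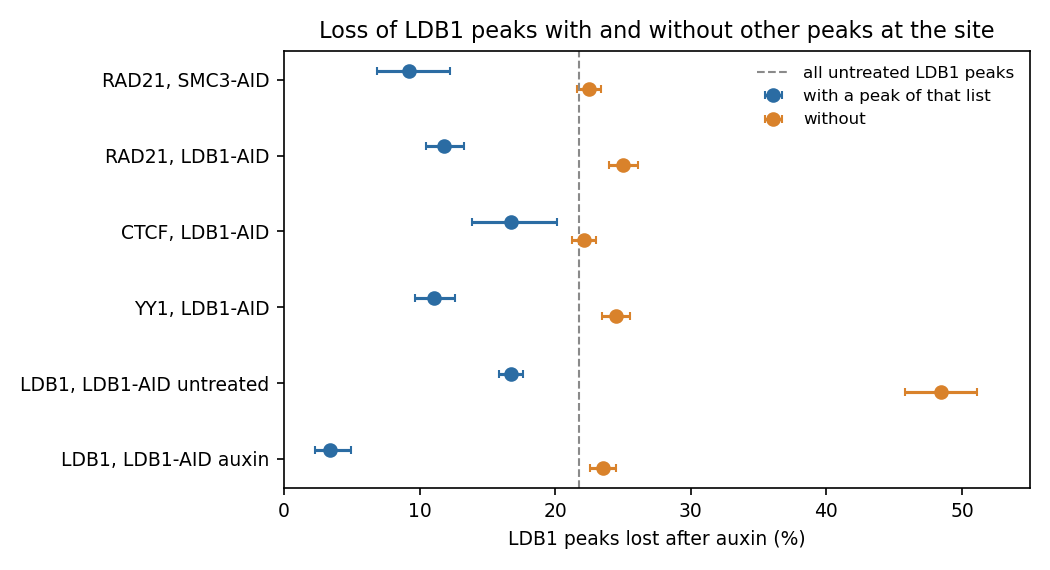
Loss after auxin among the LDB1 peaks called in untreated SMC3-AID cells (%, x axis), for peaks with and without a peak of each of 6 other lists (y axis). Points are shares, bars are Wilson 95% intervals, and the dashed line is the share for all peaks. Each list's overlapping peaks lie below its others, from 3.4% against 23.5% for LDB1 of auxin-treated LDB1-AID cells to 16.8% against 22.1% for CTCF.

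RAD21 sites were then split by subline and by CTCF, and loss was lower at RAD21 sites without CTCF than at those with it. Loss was 8.75% at the 377 LDB1 peaks with RAD21 in both sublines, 11.6% at the 69 with RAD21 in SMC3-AID cells alone and 12.5% at the 1718 with RAD21 in LDB1-AID cells alone. At the 6421 with RAD21 in neither it was 25.2%. RAD21 in both sublines minus RAD21 in LDB1-AID cells alone gave -3.7 points (-6.66 to -0.101). Where the RAD21 peak of SMC3-AID cells carried CTCF, 13.7% of 190 LDB1 peaks were lost, against 5.86% of 256 where it did not, a difference of 7.82 points (2.33 to 13.9). Of the 41 lost LDB1 peaks on RAD21, 24 carried CTCF (58.5%), 7 carried YY1 (17.1%) and 29 were found in LDB1-AID cells (70.7%). Of the 405 kept ones the shares were 35.3%, 43.7% and 92.3%.

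The 3 lost RAD21-bound peaks with the most neighbours are named by rule and do not stand for the 41. Those at 3025481 to 3025880 and 3037853 to 3038252 on chromosome 9 belong to the region at the chromosome's start described above, with 17 and 11 neighbours, and overlapped no CTCF or YY1 peak. The peak on chromosome 12 (32816783 to 32817182) had 4 neighbours, RAD21 in both sublines, CTCF, and LDB1 in LDB1-AID cells.

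Loss also differed by combination of the LDB1-AID lists. Peaks without RAD21, CTCF or YY1, 5417 in number, were lost in 27% of cases. Of these peaks 76.9% were also found in untreated LDB1-AID cells, against 90.6% to 98.9% in the other combinations. The shares lost by combination are not adjusted for that difference. Loss was 20.9% at the 134 with CTCF alone, 14.1% at the 907 with YY1 alone and 13% at the 1063 with RAD21 alone. Added YY1 went with a lower loss at RAD21 sites, at 7.48% of 655 peaks, with a difference from RAD21 alone of -5.5 points (-8.29 to -2.55). At RAD21 sites without YY1, added CTCF went with a higher loss, at 19.8% of 258 peaks, with a difference from RAD21 alone of 6.79 points (1.89 to 12.4). Where YY1 was present this was not seen. With all 3 proteins 7.56% of 119 were lost (4.03 to 13.8), and with CTCF and YY1 without RAD21 9.38% of 32 (3.24 to 24.2). Counting how many of LDB1, RAD21 and YY1 of untreated LDB1-AID cells were present gave a loss of 48.6% with 0, 21.1% with 1, 12.9% with 2 and 6.93% with 3. This count leaves out CTCF and uses lists that each went with lower loss above, so its fall is not a separate result.

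A logistic model with 7 terms, chosen after the data were seen, set these measures side by side. It held no term for LDB1 of auxin-treated LDB1-AID cells, the list with the lowest loss above. Its odds ratios were 0.256 (0.225 to 0.291) for LDB1 of untreated LDB1-AID cells, 0.51 (0.356 to 0.731) for RAD21 of SMC3-AID cells, 0.633 (0.539 to 0.743) for RAD21 of LDB1-AID cells and 0.569 (0.481 to 0.673) for YY1. For CTCF it was 1.28 (0.995 to 1.65), on the other side of 1 from its unadjusted value. The intervals for a neighbour and for RAD21 within 25 kb both included 1, as given above.

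In these overlaps the auxin-only peaks had shares nearer to those of lost peaks than to those of kept peaks. A peak of the LDB1-AID RAD21 list overlapped 12.8% of auxin-only peaks, 13.2% of lost peaks and 27.5% of the kept peaks. YY1 was present at 12.4%, 10.1% and 22.5%, with kept peaks read from the auxin list. LDB1 of untreated LDB1-AID cells was present at 63.7%, 64.6% and 89.5%. For each of the 6 lists the interval of the difference between auxin-only and lost peaks included 0, the widest being -5.65 to 3.64 points for LDB1 of untreated LDB1-AID cells. Auxin-only minus kept peaks gave -14.7 points for RAD21 of LDB1-AID cells (-17.5 to -11.4) and -10.1 for YY1 (-12.9 to -6.87). For LDB1 of LDB1-AID cells it was -25.8 points in untreated cells (-30.1 to -21.8) and -8.46 after auxin (-9.65 to -6.68). For RAD21 of SMC3-AID cells it was -2.58 points (-3.96 to -0.568). For CTCF it was -1.5 points (-3.24 to 0.85), an interval that includes 0. In distance to RAD21 of SMC3-AID cells they differed from lost peaks, with 58.1% against 52.8% within 25 kb, a difference of 5.29 points (0.461 to 10). On that measure they were close to kept peaks of the auxin list, at 58.3%, a difference of -0.2 points (-4.63 to 4.12).

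**Figure D5:**
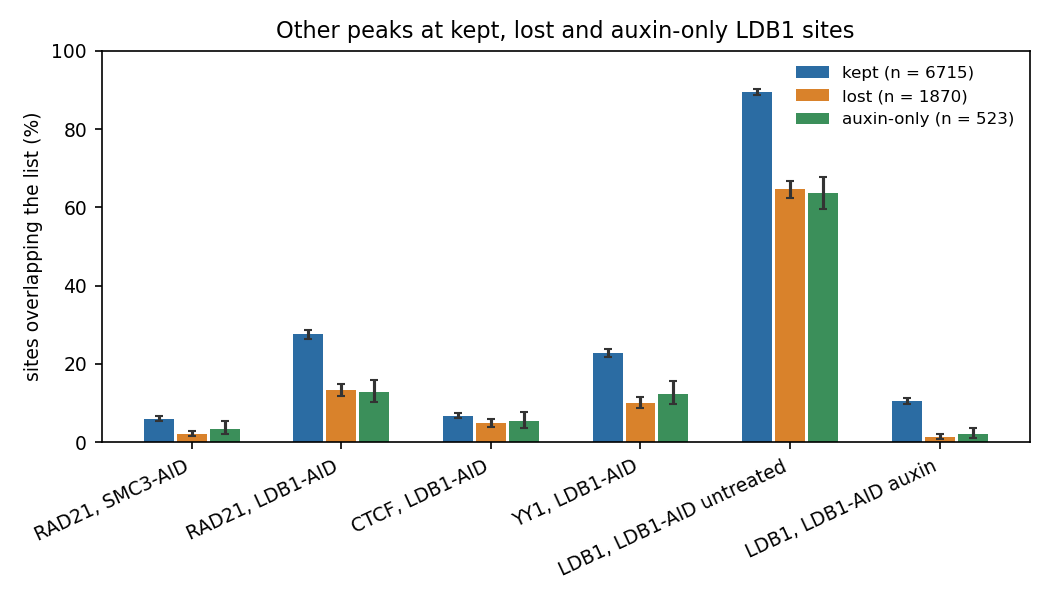
Share of kept, lost and auxin-only LDB1 sites (%, y axis) that overlapped a peak of each of 6 other lists (x axis). Bars start at 0 and error bars are Wilson 95% intervals. For LDB1 of untreated LDB1-AID cells, lost and auxin-only sites stand at 64.6% and 63.7% and kept sites at 89.5%.

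The same measures were set beside the difference between the 2 untreated sublines, in which no SMC3 had been degraded. These comparisons share the untreated SMC3-AID list, so they are given side by side and not as independent. The untreated LDB1-AID list lacked 15.9% of the untreated SMC3-AID peaks. This outcome is read from the subline that also gave the RAD21, YY1 and CTCF lists of LDB1-AID cells, unlike loss after auxin. Odds ratios for those lists are therefore not like for like between the 2 comparisons. The odds ratio of not being found, with against without the feature, was 0.113 for RAD21 of LDB1-AID cells, 0.141 for YY1 and 0.785 for a neighbour of the same list. For loss after auxin those odds ratios were 0.401, 0.383 and 0.831. For untreated LDB1-AID peaks not found in untreated SMC3-AID cells, 33% of 10729, they were 0.569, 0.609 and 0.865. For auxin-only peaks among the auxin list they were 0.387, 0.487 and 0.924. The interval for a neighbour among auxin peaks, 0.773 to 1.10, included 1. For RAD21 of SMC3-AID cells the 4 comparisons, in the order just given, had odds ratios of 0.55, 0.349, 0.489 and 0.557. For CTCF they had 0.336, 0.709, 1.18 (1.01 to 1.37) and 0.769 (0.519 to 1.14). CTCF thus went the other way for LDB1-AID peaks not found in SMC3-AID cells, and its interval among auxin peaks included 1.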

How the data were processed

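The deposited files are lists of peak positions in bp, with no score, signal or count, and all peaks were 400 bp wide. Bowtie2, MACS2 2.2.9.1, deepTools 3.5.1 and build mm9 are named in the submitters' processing notes. How the consensus of replicates was made and which threshold was used is not given in the sources used here. Per the labels, each list stands for all replicates of its group, and the group of each sample comes from its title. The 9 lists cover 22 of 65 samples.

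Peaks on chromosomes 1 to 19 and X were used. Overlaps of at least 1 bp, midpoint distances, neighbours within 25 kb and regions chained at 25 kb were computed with Python 3.11.15, numpy 2.4.6 and pandas 2.3.3, intervals with scipy 1.17.1, and the logistic model with statsmodels 0.14.6. The functions were tested on simulated data and checked against bedtools 2.31.1. Because the lists combine replicates, no p-values were computed. The precision of a share is limited by the number of peaks, and read depth is unknown.

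Members and measures were chosen with earlier results of these data known. Regions were named by the most lost peaks, the most untreated peaks with none lost, the most auxin-only peaks and 3 or more peaks all lost, and peaks by RAD21 overlap and most neighbours. Alternatives were 3 other overlap rules, autosomes only, no chromosome 9 below 3.1 Mb, other distances, the other RAD21 list, merging of peaks within 1 kb, and peaks found in LDB1-AID cells. A genome of build mm9 was not used here, so planned motif, promoter and gene results were not run, and no sequence or gene is given.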

Additional observations from a re-analysis of the deposited data

Results flagged for a closer look

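Outside chromosomes 1 to 19 and X, which the comparisons do not use, the untreated LDB1 list of SMC3-AID cells held 9 peaks and the auxin list 8. They lay on the contigs chr1_random, chr9_random and chrUn_random. Of the 9 untreated peaks 7 were kept and 2 were lost, and 1 auxin peak was auxin-only.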

How the results depend on the processing

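Of 79 alternative values for 10 results, 68 kept the direction and the side of 1 on which the interval lay, or a count within 1.5 times. Lost peaks numbered 1756 to 1932 and auxin-only peaks 466 to 584 under other overlap rules and chromosome sets. The values that did not keep were odds ratios of loss, and the cause was not tested. Among LDB1 peaks absent from untreated LDB1-AID cells, chosen after the data were seen, the odds ratio was 1.10 for RAD21 within 25 kb, 0.879 for a neighbour, 1.15 for RAD21 of LDB1-AID cells, 1.74 for CTCF and 0.817 for YY1. These rest on fewer peaks, and the interval of each included 1. In the joint model, also chosen after the data were seen, it was 0.961 for RAD21 within 25 kb, 0.944 for a neighbour and 1.28 for CTCF. For a neighbour it was 0.937 at 100 kb and 0.978 at peaks without RAD21, YY1 or CTCF. For CTCF it was 0.781 among peaks found in LDB1-AID cells. The odds ratios for LDB1 of LDB1-AID cells and for RAD21 of SMC3-AID cells kept their side under all alternatives run.

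No paired analysis was possible because each list combines the replicates of its group, and for the same reason none was left out. Without depth or peak height, a lost peak is one that was no longer called, and how far its signal fell is unknown.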

Other observations

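LDB1 loss was also read by the gap between consecutive RAD21 peaks of untreated SMC3-AID cells. A total of 8130 untreated LDB1 peaks lay in 4667 such gaps, with a median gap of 92.9 kb. With these peaks split into 4 classes of about equal size by gap length, the share lost from the shortest to the longest class was 21%, 22.5%, 22.5% and 23.8%. By the number of LDB1 peaks that shared a gap it was 21.9% with 1, 22.5% with 2, 23.7% with 3, 21.8% with 4 and 22.6% with 5 or more. LDB1 occupied former cohesin sites at a similar share in both conditions, with 446 of 8585 untreated peaks (5.2%) and 422 of 7237 auxin peaks (5.83%) on a RAD21 position of untreated cells. Of the 10 untreated LDB1 peaks on a RAD21 peak still called after auxin, 9 were kept, and 9 of the 10 lay in the single region at the start of chromosome 9.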
